A study of Mus musculus with 4 samples.

Results

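Kruppel-like factors are DNA-binding proteins that end in a run of zinc fingers and bind GC-rich and CACCC sequences in promoters and enhancers. Their amino-terminal parts differ, so that some members mainly recruit acetyltransferase coactivators, others the corepressor CtBP, and others the Sin3A repressor complex. In macrophages Klf2 and Klf4 are known to restrain NF-kB-driven inflammatory genes, Klf4 to take part in monocyte differentiation and alternative activation, and Klf6 to favour inflammatory gene expression. The 10 genes described here, Klf2, Klf3, Klf4, Klf6, Klf7, Klf9, Klf10, Klf11, Klf13 and Klf16, were chosen by symbol and found through their Ensembl gene identifiers among 53379 identifiers of the count table. All 10 passed the filter on low counts, which left 18422 genes to test.

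RNA came from macrophages that had been sorted from tumours of C57BL/6J mice by CD45, CD11b and F4/80 at 21 days after the tumour was implanted. Each of the 4 libraries belonged to 1 mouse, 2 mice fed a high-fat diet (high-fat mice 1 and 2) and 2 fed a control diet (control mice 1 and 2), and every mouse carried a tumour of MC38, a mouse colon carcinoma line. The sources used here do not give the composition and length of the diets or the age and sex of the mice. All values rest on a single tumour model. Libraries held 34148682 to 37159552 counts.

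The sorted cells carried the macrophage identity of their label in all libraries. The summed level of 11 macrophage markers, Csf1r, Adgre1, Cd68 and the C1q chains among them, ran from 13022 to 16189 CPM (counts scaled to library depth with TMM factors), and 0 of the 11 were called by edgeR (2 at an unadjusted p below 0.05, 0 called by DESeq2). Markers of other cells were unequal between mice. Those of monocytes (6 genes) summed to 791.2 and 500.1 CPM in high-fat mice 1 and 2 and to 1387 and 512.6 CPM in control mice 1 and 2, with 0 of 6 called by edgeR (3 at an unadjusted p below 0.05, 1 by DESeq2). Dendritic cell markers summed to 18.83 and 24.91 CPM against 85.57 and 53.1 CPM, with 2 of 6 lower, and neutrophil markers to 192.9 and 170.8 against 392.5 and 192.2 CPM, with 5 of 8 lower. Most of the neutrophil sum was Csf3r (80.81 and 83 against 138.3 and 71.65 CPM) and Mmp9 (104.5 and 81.52 against 123.6 and 73.5 CPM). In 6 of the 8 neutrophil markers both control mice lay above both high-fat mice, against 31.6% of all genes. S100a9, for instance, had 2.751 and 2.189 against 55.39 and 24.81 CPM. Markers of T and NK cells summed to 25.5 and 22.36 against 106.6 and 26.02 CPM (1 of 9 lower). Fibroblast and pericyte markers were higher in the high-fat libraries (5 of 8, 2041 and 2025 against 1024 and 773.6 CPM), and epithelial markers lower (5 of 6, 39.39 and 45.94 against 155.9 and 109.1 CPM). Cdh1 alone made up 144.4 and 57.02 CPM of the epithelial sum in control mice 1 and 2, and the other 5 epithelial markers were highest in control mouse 2. Endothelial markers summed to 42.75 and 58.74 against 91.74 and 51.32 CPM, with 0 of 5 called by edgeR (3 at an unadjusted p below 0.05, 0 by DESeq2). That sum was mostly Pecam1 (26.54 and 40.26 against 78.24 and 43.15 CPM), while the other 4 endothelial markers tested had positive log2 fold changes and the list's median was 0.65. Ly6g, a neutrophil marker, and Cldn4, an epithelial marker, had 0 counts in at least 1 library. Control mouse 1 was thus the library with the highest sums for monocytes, neutrophils, dendritic cells, and T and NK cells, though single markers such as Ly6g and Xcr1 were highest in control mouse 2, and the part of these cells in the differences below was not tested. In RNA of sorted cells, fewer cells of a type and less RNA per cell cannot be told apart.

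The promoters of Klf4, Klf2 and Klf6 are shown because these genes held most of the family's RNA per kb and differed in how far the diets lay apart. Each is the 250 bases before the RefSeq transcription start (GRCm38.p6), written 5' to 3' along the gene. Capitals mark 3 motifs searched on both strands, the KLF box CACCC, the GC box GGGCGG and a MEF2-type site (CTA and TAG with any 4 bases between them), with overlapping matches counted. Klf4 lies at chr4:55532476-55532725 on the minus strand, Klf2 at chr8:72318812-72319061 on the plus strand and Klf6 at chr13:5861239-5861488 on the plus strand.
Klf4: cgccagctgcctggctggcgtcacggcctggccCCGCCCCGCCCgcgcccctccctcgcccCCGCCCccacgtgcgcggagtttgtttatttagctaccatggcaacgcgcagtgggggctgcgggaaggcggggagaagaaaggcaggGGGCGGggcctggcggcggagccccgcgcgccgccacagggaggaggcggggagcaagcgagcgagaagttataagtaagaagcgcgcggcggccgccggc
Klf2: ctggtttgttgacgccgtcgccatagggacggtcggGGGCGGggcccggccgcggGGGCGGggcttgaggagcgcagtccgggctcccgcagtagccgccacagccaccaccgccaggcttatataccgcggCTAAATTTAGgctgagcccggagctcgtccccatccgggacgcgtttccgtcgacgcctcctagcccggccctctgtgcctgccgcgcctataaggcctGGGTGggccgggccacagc
Klf6: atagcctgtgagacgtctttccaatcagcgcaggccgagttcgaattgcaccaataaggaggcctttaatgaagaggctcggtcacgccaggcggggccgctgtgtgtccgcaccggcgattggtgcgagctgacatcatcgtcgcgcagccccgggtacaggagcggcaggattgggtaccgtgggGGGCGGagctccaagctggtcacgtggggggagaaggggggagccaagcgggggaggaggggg
The Klf4 window held 4 GC boxes and no KLF box, the Klf2 window 2 GC boxes, 1 KLF box and 1 MEF2-type site, and the Klf6 window 1 GC box. Over 8 members with a promoter in the RefSeq table, 7 windows held a GC box and 5 a KLF box, against 32.7% and 52.0% of 32851 promoter windows of the same length. Only the Klf2 window among these 8 held the MEF2-type site, which 3.2% of all windows held. MEF2 proteins, activated by the kinase ERK5, are textbook inducers of Klf2. GC content was 74.0% in the Klf4, 71.2% in the Klf2 and 64.8% in the Klf6 window, against a median of 52.4% over all windows. A match describes the letters and is not evidence of binding.

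Levels of different genes are compared here per kb of exon, (RPKM, the TMM-scaled CPM over the exon length in kb). In the control libraries Klf4 led with 242.7 ± 91.22 RPKM (SD, n = 2), before Klf6 with 163.8 ± 48.96, Klf2 with 147.4 ± 5.425 and Klf13 with 48.3 ± 10.71 RPKM. Klf4 and Klf6 overlapped between mice there, as did Klf6 and Klf2, so their order was within the spread. In the high-fat libraries the order was Klf6 with 143.7 ± 7.858, Klf2 with 108.6 ± 24.53, Klf4 with 87.25 ± 2.265 and Klf13 with 29.97 ± 0.7155 RPKM, and no neighbours overlapped. Klf10 and Klf16 followed at 16.01 to 25.15 RPKM as diet means. Klf3, Klf7, Klf11 and Klf9 stayed below 10 RPKM in both diets, with Klf9 lowest at 2.023 ± 0.1589 in the high-fat and 3.791 ± 2.108 RPKM in the control libraries.

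The family's summed level was lower in both high-fat libraries. It came to 411.8 and 434 RPKM in high-fat mice 1 and 2, and to 722.2 and 630.5 RPKM in control mice 1 and 2. Klf4 supplied 21.6% and 19.7% of that sum in the high-fat and 42.5% and 28.3% in the control libraries. With Klf4 left out, the other 9 genes summed to 322.9 and 348.4 against 415 and 452.4 RPKM. Klf6 supplied 36.2% and 31.8% in the high-fat libraries, and 17.9% and 31.5% in the control libraries. The makeup thus differed most in control mouse 1, where Klf4 was high and Klf6 low.

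**Figure D1:**
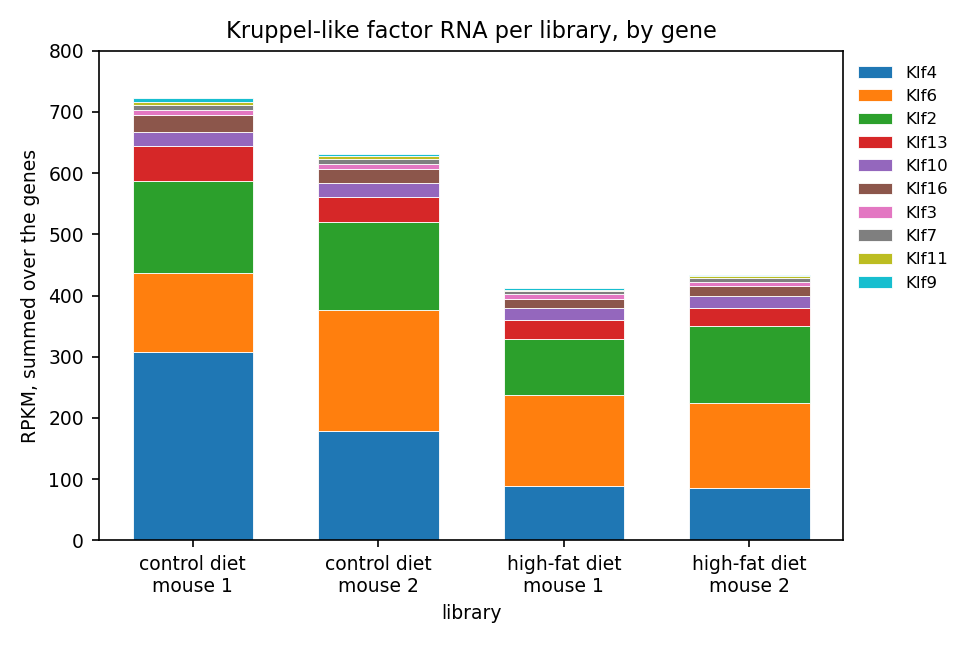
Stacked bars of the RPKM of the 10 Kruppel-like factor genes in each library, with 1 bar per mouse and 1 colour per gene. The bars of the high-fat mice reach 411.8 and 434 RPKM and those of the control mice 722.2 and 630.5 RPKM, and the Klf4 segment is the largest in control mouse 1.

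All 10 members had a negative log2 fold change, high-fat diet minus control diet, in edgeR's quasi-likelihood test, and 1 of them, Klf4, was called lower at an adjusted p below 0.05. Of all genes tested, 7.91% were called lower and 2.61% higher, so the called share of the family lay near the background. At an unadjusted p below 0.05, 5 of 10 members were lower and 0 higher, against 17.7% and 13.6% of all genes. By DESeq2, 3 were called lower and 0 higher. The median log2 fold change of the members was -0.57, over a range from -1.48 to -0.19, against a median of 0.005 over all genes, of which 49.6% had a negative value. In 9 of 10 members both high-fat mice lay below both control mice, against 31.6% of all genes, with Klf6 as the exception. The members share the same 4 libraries, and these counts are a description of them.

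**Figure D2:**
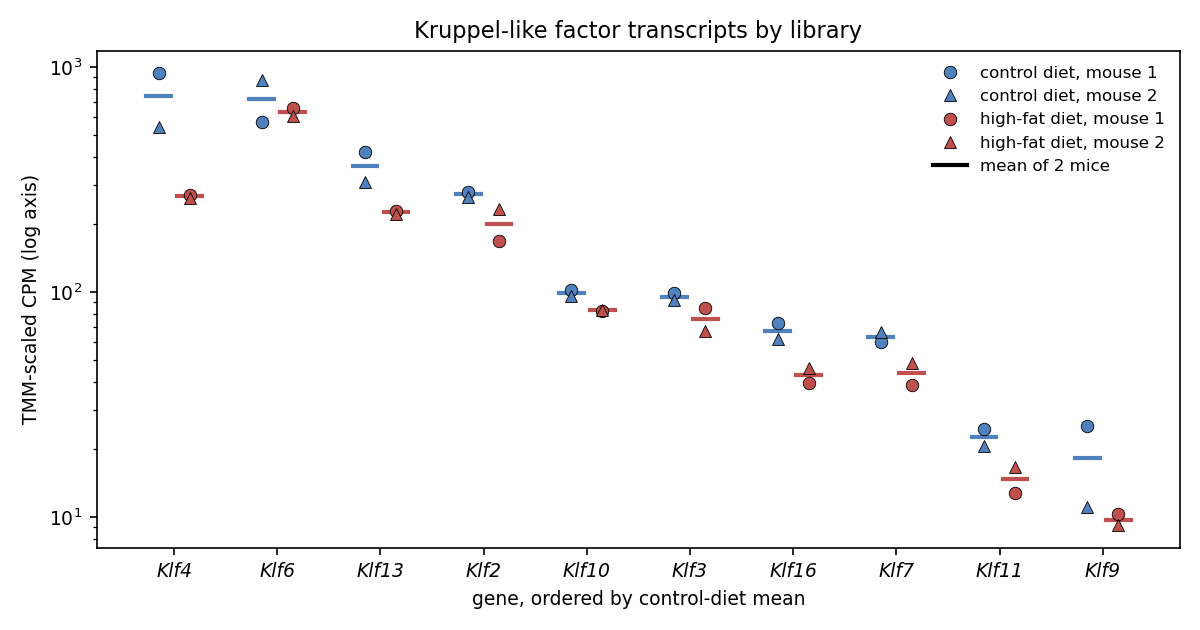
TMM-scaled CPM of the 10 genes on a log axis, with 1 point per mouse (circle for mouse 1, triangle for mouse 2), a line at the mean of 2 mice, control diet in blue and high-fat diet in red. Klf4 shows the widest gap between diets, from 270.9 and 261.2 to 936.6 and 543.3 CPM, and the points of Klf6 overlap.

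Among the activating members, Klf4, which shapes monocyte differentiation and macrophage polarisation, fell in the high-fat libraries. It lies on chromosome 4 from 55527143 to 55532466 (GRCm38, minus strand). Klf4 had 270.9 and 261.2 CPM in high-fat mice 1 and 2 and 936.6 and 543.3 CPM in control mice 1 and 2. Both high-fat mice were low and close to each other, and the control mice were higher and 1.72 times apart. The fall was 2.78-fold (log2 fold change -1.48, SE 0.27, 95% interval -2.14 to -0.82, edgeR adjusted p = 0.0302). The call ended without high-fat mouse 1 (adjusted p = 0.14) and without high-fat mouse 2 (adjusted p = 0.128), while the log2 fold change stayed at -1.48 and -1.43. It was -1.03 without control mouse 1 and -1.82 without control mouse 2, both called. Over 13 alternatives the adjusted p of Klf4 ran from 2.88e-06 to 0.14.

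Klf2, which keeps endothelial cells and lymphocytes quiescent and is induced through ERK5, is the closest partner of Klf4 in myeloid cells. It had 168.5 and 232.6 CPM in the high-fat mice and 279.4 and 265.2 CPM in the control mice. High-fat mouse 1 was the low library, and the diets did not overlap. Klf2 was not called (log2 fold change -0.44, SE 0.19, 95% interval -0.91 to 0.03, adjusted p = 0.179), and its log2 fold change was -0.21 without high-fat mouse 1 and -0.67 without high-fat mouse 2. The gene lies on chromosome 8 from 72319033 to 72321656 (plus strand).

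Klf6, an early-response factor and the most abundant member by CPM in the high-fat libraries, had 655.3 and 606.5 CPM in the high-fat mice and 567.4 and 871.5 CPM in the control mice. The high-fat mice lay between the control mice. Klf6 (chromosome 13, 5861482 to 5870394) was not called (log2 fold change -0.19, SE 0.23, 95% interval -0.75 to 0.37, adjusted p = 0.612), and its sign turned without control mouse 2 (0.15). Against Klf6, the level of Klf4 per kb was 0.595 and 0.62 in the high-fat mice and 2.38 and 0.898 in the control mice. That ratio did not overlap between diets (two-sided exact permutation p = 0.333, the smallest that 2 mice against 2 can give).

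Klf7, a broadly expressed close relative of Klf6, had 38.77 and 48.58 CPM in the high-fat mice and 59.68 and 66.7 CPM in the control mice. Both high-fat mice were lower, with a log2 fold change of -0.53 (SE 0.17, 95% interval -0.94 to -0.13) and an adjusted p of 0.0923. Klf7 lies on chromosome 1 from 64029447 to 64122282, and its log2 fold change was -0.36 without high-fat mouse 1.

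Klf3, the CtBP-recruiting repressor of the group, had 84.52 and 67.34 CPM in the high-fat mice and 98.52 and 92.21 CPM in the control mice. The diets did not overlap, but high-fat mouse 1 lay near the control mice, and Klf3 was not called (log2 fold change -0.33, SE 0.16, 95% interval -0.73 to 0.07, adjusted p = 0.225). It lies on chromosome 5 from 64803388 to 64832901, and the value was -0.15 without high-fat mouse 2. A transcript annotated on the same strand over its start, C230096K16Rik, held at most 3.22% as many counts as Klf3 in any library.

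The other 5 genes, Klf9, Klf10, Klf11, Klf13 and Klf16, belong to the subgroup whose repression domain binds Sin3A. None of the 5 was called by edgeR, and DESeq2 called Klf13 and Klf16. At an edgeR unadjusted p below 0.05, 3 of the 5 were lower, against 17.7% of all genes. In all 5 both high-fat mice lay below both control mice, against 31.6% of all genes.

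Klf13, known in lymphocytes as an activator of the chemokine gene Ccl5, was the most abundant of them, with 229.5 and 221.9 CPM in the high-fat mice and 420.8 and 306.7 CPM in the control mice. The high-fat mice were nearly equal, and control mouse 1 was the high library. Klf13 lies on chromosome 7 from 63886351 to 63938915 and had a log2 fold change of -0.69 (SE 0.19, 95% interval -1.16 to -0.22, adjusted p = 0.0716). Without control mouse 2 it was -0.90 and passed the threshold (adjusted p = 0.00734), and without control mouse 1 it was -0.44 (adjusted p = 0.134). Over 13 alternatives its adjusted p ran from 0.00734 to 0.284.

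Klf16, a short Sin3A-binding repressor, had the lowest adjusted p after Klf4. Its values were 39.6 and 46.02 CPM in the high-fat mice and 72.81 and 61.7 CPM in the control mice, with no overlap. The log2 fold change was -0.65 (SE 0.16, 95% interval -1.04 to -0.26, adjusted p = 0.0544), and -0.77 without control mouse 2, where the adjusted p was 0.0163 (0.0163 to 0.329 over 13 alternatives). Klf16 lies on chromosome 10 from 80567124 to 80577321 (minus strand), 6.33 kb past the 3' end of Abhd17a, the nearest expressed gene upstream on its strand. For the other 8 members with a matched position that distance was at least 61.6 kb.

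Klf10 and Klf11 are known as early genes induced by TGF-beta. Klf10 had 82.73 and 83.13 CPM in the high-fat mice and 101.8 and 96.11 CPM in the control mice. This was the member with the least spread between mice, and its difference was small (log2 fold change -0.26, SE 0.14, 95% interval -0.58 to 0.07, adjusted p = 0.248). Klf11 had 12.82 and 16.7 CPM in the high-fat mice and 24.57 and 20.73 CPM in the control mice. The high-fat mice were both lower, with a log2 fold change of -0.62 (SE 0.20, 95% interval -1.10 to -0.13, adjusted p = 0.0979), and Klf11 passed the threshold without control mouse 2 (-0.73, adjusted p = 0.0409, within 0.0409 to 0.506 over 13 alternatives). Klf10 lies on chromosome 15 from 38291463 to 38300706 and Klf11 on chromosome 12 from 24651274 to 24662789.

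Klf9, a textbook target of the glucocorticoid receptor, was the rarest member, with 353 to 825 counts per library. It had 10.28 and 9.199 CPM in the high-fat mice and 25.43 and 11.08 CPM in the control mice. Control mouse 1 stood apart, and control mouse 2 lay just above the high-fat mice. The log2 fold change of -0.90 (SE 0.38, 95% interval -1.83 to 0.02, adjusted p = 0.168) became -0.18 without control mouse 1. Without control mouse 2 it was -1.38, past the threshold (adjusted p = 0.00201, within 0.00201 to 0.617 over 13 alternatives).

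**Figure D3:**
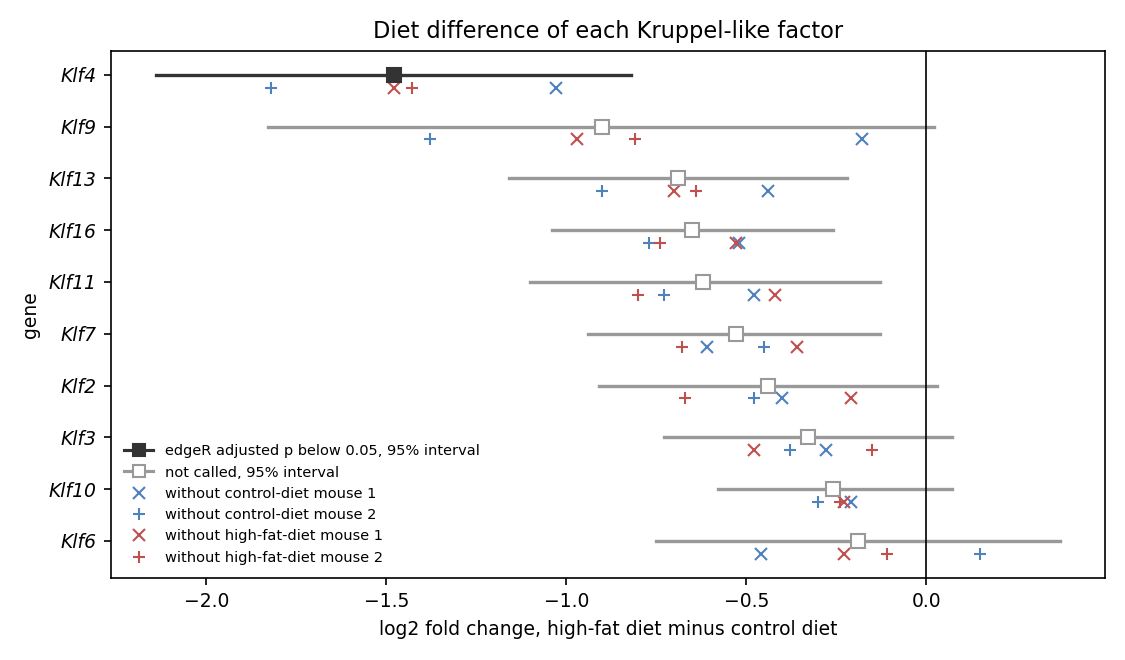
Log2 fold changes of the 10 genes (squares) with 95% intervals from edgeR, and below each the values with 1 mouse left out (crosses and plus signs). All squares lie below 0 and only that of Klf4 is filled as called, while Klf9 moves from -1.38 to -0.18 and Klf6 to 0.15 with the control mouse left out.

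The spread between control mice set several of these values apart. The level of control mouse 1 over control mouse 2 was 2.3 for Klf9, 1.72 for Klf4 and 1.37 for Klf13, and 0.651 for Klf6, while between the high-fat mice the ratios ran from 0.724 for Klf2 to 1.26 for Klf3. The summed levels of monocyte, neutrophil and T and NK cell markers were also highest in control mouse 1. Without that mouse the log2 fold change of Klf4 was -1.03, against -1.48 with all mice. The median of the members was then -0.45, against -0.57. It was also -0.45 without high-fat mouse 1, -0.68 without high-fat mouse 2 and -0.61 without control mouse 2. The part of the other cells in these values was not tested.

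For Klf4 and Klf6, the members of highest mean CPM, the genes of nearest pattern were sought among 6034 genes whose log2 CPM averaged 5 or more, by the Euclidean distance of centred log2 CPM over the 4 libraries. Nearest to Klf4 were Ass1, an enzyme of arginine synthesis, at a distance of 0.112, and Chd7, a chromatin remodeller, at 0.149. Ass1 had 19.15 and 20.56 CPM in the high-fat mice and 68.65 and 40.33 CPM in the control mice. Nearest to Klf6 were Rab8b, a small GTPase, at 0.0915, and Fnip1, a folliculin partner, at 0.0937. With 4 points each, such a likeness is a description.

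The rest of the family was sparse. Of the other KLF genes matched, Klf5, Klf8 and Klf12 passed the filter, and edgeR called 0 of the 3 (1 at an unadjusted p below 0.05, 1 by DESeq2). Klf5, a factor of epithelial cells, had 2.11 and 2.632 CPM in the high-fat mice and 4.069 and 10.16 CPM in the control mice (log2 fold change -1.59, SE 0.46, adjusted p = 0.0761). Of the epithelial markers Epcam had 0.721 and 0.5212 CPM in the high-fat mice and 2.898 and 11.75 CPM in control mice 1 and 2, and the summed list 155.9 and 109.1 CPM in control mice 1 and 2. The part of these cells in the Klf5 values was not tested. With the replicate number as a block Klf5 was called (log2 fold change -1.46, adjusted p = 0.031). Klf8, a CtBP-binding repressor, had 8.18 ± 1.876 against 7.897 ± 0.8644 CPM and Klf12, of the same subgroup, 0.5556 ± 0.1961 against 0.4771 ± 0.0664 CPM (SD, n = 2). The erythroid factor Klf1 had 6 to 11 counts per library, Klf15 at most 4 and Klf14 at most 1. Klf17 had 0 counts in every library, which allows up to 0.0807 to 0.0879 CPM by counting error alone, taking 3 counts as the limit. Klf18 was not analysed here.

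Sp proteins bind the same GC boxes through related zinc fingers. Of 9 Sp genes 5 passed the filter, and edgeR called 0 of them (0 at an unadjusted p below 0.05, 0 by DESeq2), with a median log2 fold change of 0.12. Sp4 had 12.29 ± 3.961 against 16.13 ± 1.184 CPM (SD, n = 2, adjusted p = 0.334), Sp3 119 ± 23.8 against 100.5 ± 23.35 CPM (adjusted p = 0.494), and Sp9 stayed below 1 CPM.

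Partners through which the factors act are given beside all genes tested, of which edgeR called 7.91% lower and 2.61% higher. Of 12 genes of the CtBP and Sin3 corepressor complexes edgeR called 0 (3 at an unadjusted p below 0.05, 0 by DESeq2), with a median log2 fold change of 0.01. The deacetylase genes Hdac1 and Hdac2 went in opposite directions, Hdac1 with 32 ± 0.2311 against 43.93 ± 2.134 CPM (adjusted p = 0.0822) and Hdac2 with 50.52 ± 2.346 against 36.98 ± 1.383 CPM (adjusted p = 0.0862). Ctbp2, a CtBP gene, had 59.66 ± 2.906 against 76.71 ± 1.505 CPM (adjusted p = 0.133). Of 4 acetyltransferase coactivators, Crebbp and Ep300, which encode CBP and p300, fell. Crebbp had 105.4 and 101.1 CPM in the high-fat mice and 205.3 and 190.5 CPM in the control mice, a 1.92-fold fall (log2 fold change -0.94, SE 0.14, adjusted p = 0.0204). Ep300 had 184.1 and 170.4 CPM against 294.7 and 332.4 CPM, a 1.77-fold fall (log2 fold change -0.82, SE 0.15, adjusted p = 0.0309). Both calls ended without high-fat mouse 1 (adjusted p = 0.109 and 0.157) and without high-fat mouse 2 (adjusted p = 0.113 and 0.17).

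ERK5 and MEF2 lead to Klf2 and Klf4 transcription. Of 7 genes of this route edgeR called 0 (3 at an unadjusted p below 0.05, 1 by DESeq2), and 6 had a negative log2 fold change, with a median of -0.41. Mef2d had 164.4 and 244.5 CPM in the high-fat mice and 382.1 and 303.1 CPM in the control mice (adjusted p = 0.0932). The kinase genes Map3k3 and Map2k5 had 116.9 ± 3.988 against 160 ± 10.34 CPM (adjusted p = 0.0922) and 15.41 ± 1.245 against 21.79 ± 2.145 CPM (adjusted p = 0.109). Of 7 ubiquitin ligases that target KLF proteins, Wwp1, which acts on Klf2 and Klf5, rose 1.74-fold from 17.26 ± 3.349 to 30.03 ± 0.3133 CPM (adjusted p = 0.0454). The Wwp1 call ended without high-fat mouse 1 (adjusted p = 0.205), without high-fat mouse 2 (0.161), without control mouse 1 (0.0582), and with a correction for GC content and length (log2 fold change 0.45, adjusted p = 0.0998). Siah1a had 13.23 ± 1.497 against 8.553 ± 0.1079 CPM (adjusted p = 0.0861) and Fbxw7 23.36 ± 0.1608 against 30.79 ± 0.9047 CPM (adjusted p = 0.117).

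Response genes of glucocorticoid and TGF-beta, known inducers of Klf9 and of Klf10 and Klf11, differed gene by gene. Of 10 glucocorticoid response genes 1 rose and 1 fell, with a median log2 fold change of 0.06. Tsc22d3, which encodes the glucocorticoid-induced leucine zipper, rose from 96.09 ± 15.57 to 176.7 ± 26.5 CPM (adjusted p = 0.04), and the decoy receptor gene Il1r2 fell 4.12-fold from 59.77 ± 20.27 CPM (adjusted p = 0.0212). The clock gene Per1 had 187.6 ± 25.8 against 325.9 ± 93.22 CPM (adjusted p = 0.0796). Calls of Tsc22d3 and Il1r2 ended without high-fat mouse 1 (adjusted p = 0.192 and 0.0765), and that of Tsc22d3 also without high-fat mouse 2 (0.0719) and control mouse 1 (0.0535). Of 12 TGF-beta response genes 4 fell and 1 rose, with a median of -0.62. Id1, an inhibitor of helix-loop-helix factors, fell 6.39-fold from 57.47 ± 17.9 to 8.992 ± 1.878 CPM (adjusted p = 0.00944), Bambi, a pseudoreceptor, fell 3.45-fold (adjusted p = 0.012), and the corepressor gene Tgif1 fell 2.07-fold (adjusted p = 0.0171). The Tgif1 call ended without high-fat mouse 1 (adjusted p = 0.109) and without high-fat mouse 2 (0.0714). Skil, another corepressor gene, fell 1.72-fold and Pmepa1, a feedback inhibitor of the pathway, rose 1.55-fold (adjusted p = 0.0372 and 0.0452, both named after their values were seen). The calls of Skil and Pmepa1 also ended without high-fat mouse 1 and without high-fat mouse 2. Klf10 and Klf11 were not called.

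Genes linked to Klf2 in lymphocytes and vessels included 3 of 7 that fell and 1 that rose (median log2 fold change -1.65). Itgb7, an integrin chain, had 122 and 118.5 CPM in the high-fat mice and 417.1 and 337.8 CPM in the control mice and fell 3.14-fold (adjusted p = 0.00943). Thbd, which encodes thrombomodulin, fell 4.71-fold to 9.059 ± 1.746 CPM (adjusted p = 0.0152), and the sphingosine phosphate receptor gene S1pr4 fell 4.83-fold to 1.357 ± 0.2191 CPM (adjusted p = 0.0276). The gene that rose, S1pr1 (chosen after its values were seen), is another receptor of that lipid (log2 fold change 1.57, adjusted p = 0.043). It had 5.982 and 11.39 CPM in the high-fat mice and 3.021 and 2.823 CPM in the control mice. The list thus did not move as 1 block, though the call of S1pr1 ended without high-fat mouse 2. The calls of Thbd (adjusted p = 0.0683) and S1pr4 (0.121) ended without high-fat mouse 1, and that of S1pr4 without high-fat mouse 2 (0.0822).

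Of 7 genes linked to Klf4 in alternative activation, Mrc1, the mannose receptor gene, rose from 92.16 ± 15.06 to 160.6 ± 10.6 CPM (adjusted p = 0.0395) and 0 fell by edgeR (1 at an unadjusted p below 0.05, 1 by DESeq2). Retnla, which encodes RELM-alpha, had 0.5341 and 0.5473 CPM in the high-fat mice and 30.95 and 1.882 CPM in the control mice, where control mouse 1 alone was high (adjusted p = 0.0613). Stat6, the factor downstream of interleukin 4, had 231 ± 15.91 against 286.5 ± 18.15 CPM (adjusted p = 0.214). The call of Mrc1 ended without high-fat mouse 1 (adjusted p = 0.125) and without high-fat mouse 2 (0.156), and with the GC content and length correction (0.1). Of 9 inflammatory genes linked to Klf2, Klf4 and Klf6, edgeR called 0 (7 at an unadjusted p below 0.05, 5 by DESeq2), with a median of -0.65. Tnf had 97.55 ± 4.426 against 138.9 ± 2.568 CPM (adjusted p = 0.0665), Ptgs2, the inducible cyclooxygenase gene, 228 ± 27.79 against 363.2 ± 83.04 CPM (adjusted p = 0.0892), and F3, which encodes tissue factor, 36.44 ± 3.381 against 21.39 ± 5.153 CPM (adjusted p = 0.0636).

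Several Kruppel-like factors are immediate early genes. Of 23 other genes listed with them, 8 fell and 0 rose by edgeR (4 were higher at an unadjusted p below 0.05, 1 by DESeq2), with a median log2 fold change of -0.77. Of all genes tested, edgeR called 7.91% lower and 2.61% higher. The list also held the heat shock genes Hspa1a and Hspa1b, which edgeR did not call. Nr4a3 and Nr4a2, orphan nuclear receptor genes, and Gadd45b, a stress-response gene, fell with log2 fold changes of -5.08, -3.83 and -2.39 (adjusted p = 0.00515, 0.00557 and 0.00658). The summed level of the list was 12306 and 13478 CPM in the high-fat mice and 17961 and 12838 CPM in the control mice, a sum to which Fos, Zfp36 and Dusp1, higher in both high-fat mice, gave a large part. In 15 of the 23 genes both control mice lay above both high-fat mice, against 31.6% of all genes. In 4 both control mice lay below, against 32.2% of all genes. Their part in the values of Klf4 was not tested.

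**Figure D4:**
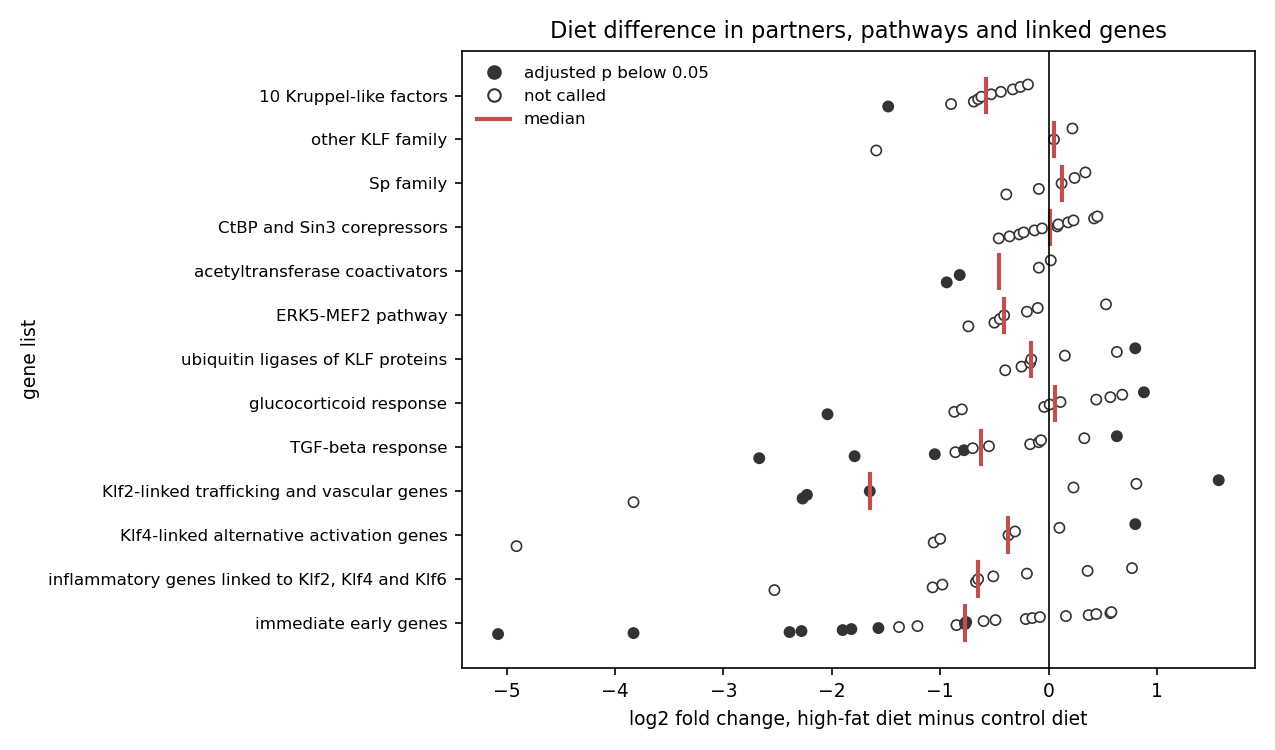
Log2 fold changes of the genes tested in each list (circles, filled at an edgeR adjusted p below 0.05), with the list's median as a red bar. All 10 Kruppel-like factors lie below 0 around a median of -0.57, while the corepressor and Sp lists centre near 0 at 0.01 and 0.12. The TGF-beta, inflammatory, immediate early and Klf2-linked lists have lower medians than the members, at -0.62, -0.65, -0.77 and -1.65.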

How the data were processed

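PolyA RNA of sorted tumour macrophages was sequenced from a stranded mRNA library kit, per the labels' protocols. The values used are counts per Ensembl gene, deposited by the authors without normalisation. The authors' tools included BWA 0.7.12, DESeq2 1.24.0, FastQC 0.11.5 and cutadapt 1.15, with the builds GRCm38 and mm10, per the submitters' processing notes. The sources used here give no counting program, strand setting or annotation release.

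Symbols were matched by identifier for 53274 of 53379 rows, and positions and exon lengths came from GENCODE M21 (GRCm38), with positions given only for the 9 members of unchanged identifier version. The diets were compared in R 4.3.3 with edgeR 4.0.16 (filterByExpr with a minimum count of 10 and total of 15, TMM, robust quasi-likelihood test, 1 term for diet), with Benjamini-Hochberg adjustment over 18422 genes. Called means an adjusted p below 0.05, and the SE is the log2 fold change over the square root of F. Nothing says how the mice were housed or processed, so p-values measure the spread between these 4 libraries. Counts of the 2 mice of a diet differed beyond sampling noise. On simulated counts of 18209 genes for this comparison, 61% of 2-fold and 100% of 4-fold changes were recovered, with 100 genes each. The changed genes were drawn from the better expressed ones only, and 24 unchanged genes were also called. The 13 alternatives were 2 other scalings, DESeq2 1.42.0, 2 filters, a replicate block, a GC content and length correction, and that block and correction together. They also included leaving out each mouse and a crossed block, which pairs mice of unlike number. The crossed block was chosen after seeing the data. Members and lists were chosen with earlier results of these data known. Named genes were all members and, from each list of partners or linked genes, up to 3 of smallest p. The result of 1 marker list is not reported here.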

Additional observations from a re-analysis of the deposited data

How the results depend on the processing

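The negative sign of all 10 members held with the other scalings, DESeq2, both filters, the blocks and the GC content and length correction, and with 1 mouse left out, except that Klf6 ran from -0.46 to 0.15 with 1 mouse left out, the latter without control mouse 2. In 114 of 130 fits of a member and a setting, sign and side of the threshold were as reported. The members called (1 as reported) were 2 with upper quartile scaling, 2 with the GC content and length correction, 2 with the replicate block and that correction together, 3 with DESeq2, 3 with no low count filter, and 0 to 5 with 1 mouse left out. Klf4 was called in all of these but the fits without a high-fat mouse. Members not overlapping between diets numbered 9 or 10 throughout. That number could hardly fall with a mouse left out, since fewer libraries leave fewer values to overlap. Nor could a block lower it, since a block does not change the levels.

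Genes called higher (480 as reported) were 1062 with DESeq2, 1552 with no filter, 305 with the filter of at least 1 CPM in 2 libraries and 71 to 1934 with 1 mouse left out. Genes called lower (1457) were 2231 with no filter and 300 to 2534 with 1 mouse left out.

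The other lists moved by a few genes. With DESeq2 the counts called were 1 other KLF gene, 1 ERK5-MEF2 gene, 2 genes linked to Klf4 and 5 inflammatory genes, and with no filter 1, 1 and 2 for the other KLF, ERK5-MEF2 and inflammatory lists. With the GC content and length correction they were 1 Sp gene, 1 ERK5-MEF2 gene, 0 ubiquitin ligases, 0 genes linked to Klf4 and 2 inflammatory genes. The replicate block with that correction gave 1 other KLF gene, 1 Sp gene, 1 acetyltransferase, 1 ERK5-MEF2 gene, 0 ubiquitin ligases, 0 genes linked to Klf4 and 1 inflammatory gene. Ubiquitin ligases called were 0 with upper quartile scaling and 0 with the filter of at least 1 CPM, where 1 glucocorticoid response gene was called. With 1 mouse left out the ranges were 0 to 1 for the other KLF, Sp, corepressor and ubiquitin ligase lists, 0 to 2 for the acetyltransferase and ERK5-MEF2 lists, 0 to 3 for the glucocorticoid list and that linked to Klf4, 0 to 5 for the inflammatory list, 2 to 7 for TGF-beta, 2 to 5 for the list linked to Klf2 and 3 to 13 for immediate early genes. Log2 fold changes that turned were Klf8 with the correction (-0.21), with block and correction (-0.20), without high-fat mouse 1 (-0.19) and without control mouse 2 (-0.06, highest 0.29 without high-fat mouse 2), Klf12 without high-fat mouse 1 (-0.17, highest 0.56), Sp3 with the correction (-0.14) and with block and correction (-0.14), and Kat2b without high-fat mouse 2 (0.08, lowest -0.24). Where no cause is evident from fewer samples or genes, the cause was not tested.

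The replicate numbers of the labels are not stated to pair mice. Deviations of same-numbered mice correlated at -0.188 over 10312 genes. With the replicate block, 1 member and 1 other KLF gene were called, and 567 genes were higher and 1481 lower. A crossed block, chosen after seeing the data, gave 909 higher and 1546 lower genes, 3 members, 1 ERK5-MEF2 gene, 4 glucocorticoid and 3 inflammatory genes. With 1 mouse left out, its diet's lone mouse is assumed to vary like the other diet. Recovery of changes below 2-fold, the size of most members, was not tested on simulated counts.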
